A study of Rattus norvegicus with 10 samples.

Results

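The cholesterol and fatty acid synthesis genes are a list of 33 rat genes for the enzymes that build sterols and fatty acids from acetyl-CoA and for the proteins that control those enzymes. A gene was represented by a probe set that the array annotation gives to it alone, and where there were several, by the one with the highest mean log2 signal over the arrays. By this rule 32 of the 33 genes were found, among 14217 genes in the whole series that had a probe set of their own. Hmgcs1 was not analysed here. The sterol arm held 22 of the genes: 15 enzymes from acetoacetyl-CoA to cholesterol, 5 control proteins, and Aacs and Acss2, which supply activated acids. The fatty acid arm held 10: 8 enzymes (Acly, Acaca, Fasn, Scd, Scd2, Elovl5, Elovl6 and Me1) and the regulators Srebf1 and Thrsp. The rule uses no measured difference, though the genes were chosen with earlier results of these data known. All 32 had a signal above the filter that left out the dimmest 40% of probe sets, so none was lost to it.

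The samples were mammary tumours of female rats of the outbred Sprague-Dawley strain, given 100 mg/kg of the carcinogen DMBA (7,12-dimethylbenz(a)anthracene) by mouth as a single dose. Tumours 31D3, 32D1, 37I1, 50I1 and 52I4 were each measured at 2 moments on Affymetrix Rat Genome 230 2.0 arrays. The first sample was a needle biopsy of 0.7 cm by 2.5 mm, taken when the tumour had reached 2 cm3, from rats labelled 12 weeks of age, and the second was the total tumour at 19 weeks. The labels give no treatment other than DMBA for either group, and histology put the tumours at grade II. A core and a whole tumour differ in age, in size and in how they were taken, and these cannot be told apart here. Whether the tumours grew in separate rats is not stated in the labels. The p-values therefore rest only on how the pair differences spread over these tumours. All values below are log2 signals of probe sets after Robust Multichip Average (RMA), a normalization in which each array is given the same distribution. A difference is always total tumour minus biopsy, and a difference of 1 is a 2-fold change. The array medians lay between 5.99 and 6.12, and array pairs correlated at 0.952 to 0.989 over probe sets.

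Sterols and fatty acids share a source in cytosolic acetyl-CoA, made from citrate by Acly or from acetate by Acss2. The sterol route runs through mevalonate, isoprenoid units, squalene and lanosterol to cholesterol. The fatty acid route runs through malonyl-CoA to palmitate, which is then elongated and desaturated. Transcription of both routes is driven by membrane-bound factors that Scap carries from the endoplasmic reticulum when sterols are low: Srebf2 chiefly for sterol genes and Srebf1 chiefly for fatty acid genes. Insig1 and Insig2 hold Scap back when sterols are plentiful. Secretory mammary epithelium makes large amounts of fatty acids for milk, and dividing cells need sterols and fatty acids for new membranes.

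Promoter windows from RefSeq (build GRCr8, 250 bases before to 50 after the transcription start) were found for 25 of the 32 genes. They were searched on both strands for the sterol regulatory element as TCACNCCAC, for its stricter form TCACCCCAC, for the E-box CACGTG and for CCAAT, the box bound by NF-Y. The 2 forms of the element overlap each other, since the first holds the second. CCAAT, or ATTGG on the other strand, was found in 18 of the 25 genes, 13 of 18 in the sterol arm and 5 of 7 in the fatty acid arm, against 37.5% of all 33469 windows. There were 37 matches in all, and 10 genes held several. CACGTG was found in 4 genes, Insig1, Sc5d, Scap and Elovl5, against 6.42% of windows. TCACNCCAC was found in 0 of 25, against 1.12% of windows, and TCACCCCAC in 0, against 0.484%. These letters are therefore not in the windows searched, which says nothing about binding. A match is a description of letters, not a site.

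Of the genes with a window, 3 sterol genes with several CCAAT boxes and 2 fatty acid genes whose levels are described at length below are shown over the 180 bases before the start, 5′ to 3′ on the gene's strand. Capitals mark CCAAT or its reverse complement. The windows are Fdps at chr2:176804817-176804996 on the minus strand, Idi1 at chr17:66547525-66547704 on the minus strand, Msmo1 at chr16:29746933-29747112 on the plus strand, Acly at chr10:85963632-85963811 on the minus strand and Thrsp at chr1:161138965-161139144 on the minus strand.
Fdps: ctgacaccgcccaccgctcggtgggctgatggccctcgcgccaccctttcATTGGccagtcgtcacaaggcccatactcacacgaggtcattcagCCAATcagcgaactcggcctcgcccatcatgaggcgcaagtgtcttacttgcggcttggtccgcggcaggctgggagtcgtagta
Idi1: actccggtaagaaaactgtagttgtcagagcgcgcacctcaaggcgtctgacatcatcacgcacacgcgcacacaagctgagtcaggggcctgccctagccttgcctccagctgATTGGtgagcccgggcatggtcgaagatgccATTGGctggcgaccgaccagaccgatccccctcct
Msmo1: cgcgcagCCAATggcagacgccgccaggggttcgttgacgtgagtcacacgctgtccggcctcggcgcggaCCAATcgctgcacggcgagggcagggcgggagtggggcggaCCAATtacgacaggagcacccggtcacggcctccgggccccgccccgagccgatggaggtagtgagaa
Acly: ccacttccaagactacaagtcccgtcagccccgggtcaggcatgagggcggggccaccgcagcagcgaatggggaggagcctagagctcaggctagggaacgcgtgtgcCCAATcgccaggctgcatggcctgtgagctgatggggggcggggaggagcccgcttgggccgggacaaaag
Thrsp: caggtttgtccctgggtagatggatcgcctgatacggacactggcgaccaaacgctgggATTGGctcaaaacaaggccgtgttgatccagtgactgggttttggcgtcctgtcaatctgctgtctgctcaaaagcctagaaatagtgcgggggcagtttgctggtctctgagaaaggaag
Msmo1, a sterol demethylase, has 3 boxes in this stretch, at positions -173, -109 and -68 from the start. Idi1 and Fdps, which make and join the isoprenoid units, have 2 each. Acly and Thrsp have 1 each.

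Between biopsy and total tumour, no gene of either arm passed the test, and the tumours did not go the same way. Total tumours of 50I1 and 52I4 had higher signals than their biopsies for most sterol genes, and those of 32D1 and 37I1 had lower signals for most. In the fatty acid arm the tumour 31D3 was lower in all 10 genes, while 50I1 was higher in 7. Acly, the enzyme that makes cytosolic acetyl-CoA from citrate, was the single gene of the 32 lower in every tumour, with a difference of -0.39 (limma SE 0.0991, n = 5).

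With limma's moderated test, the tumour as a block and Benjamini-Hochberg adjustment over 18625 probe sets, 0 of 32 genes were called at an adjusted p under 0.05. Over all probe sets tested the called share was 0% in this comparison, so no gene of any kind was called. The lowest adjusted p among the 32 was 0.642, for Acly. At an unadjusted p under 0.05 limma gave 1 of 32, against 6.08% of all probe sets. The methods' t-test for paired samples also gave 1 at that unadjusted level and 0 after adjustment, with a lowest adjusted p of 0.882. Being lower in 5 of 5 pairs, as Acly was, happened in 5.11% of all probe sets tested, and 0 of the 32 were higher in 5 of 5, against 2.12%. In total 14 genes were higher on average in total tumours and 18 lower, with a median difference of -0.02. Over all 10793 genes that passed the filter, 5521 were higher and 5272 lower, and the median difference was 0.00393. The sterol arm split evenly, 11 higher and 11 lower, and the fatty acid arm 3 higher and 7 lower.

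**Figure D1:**
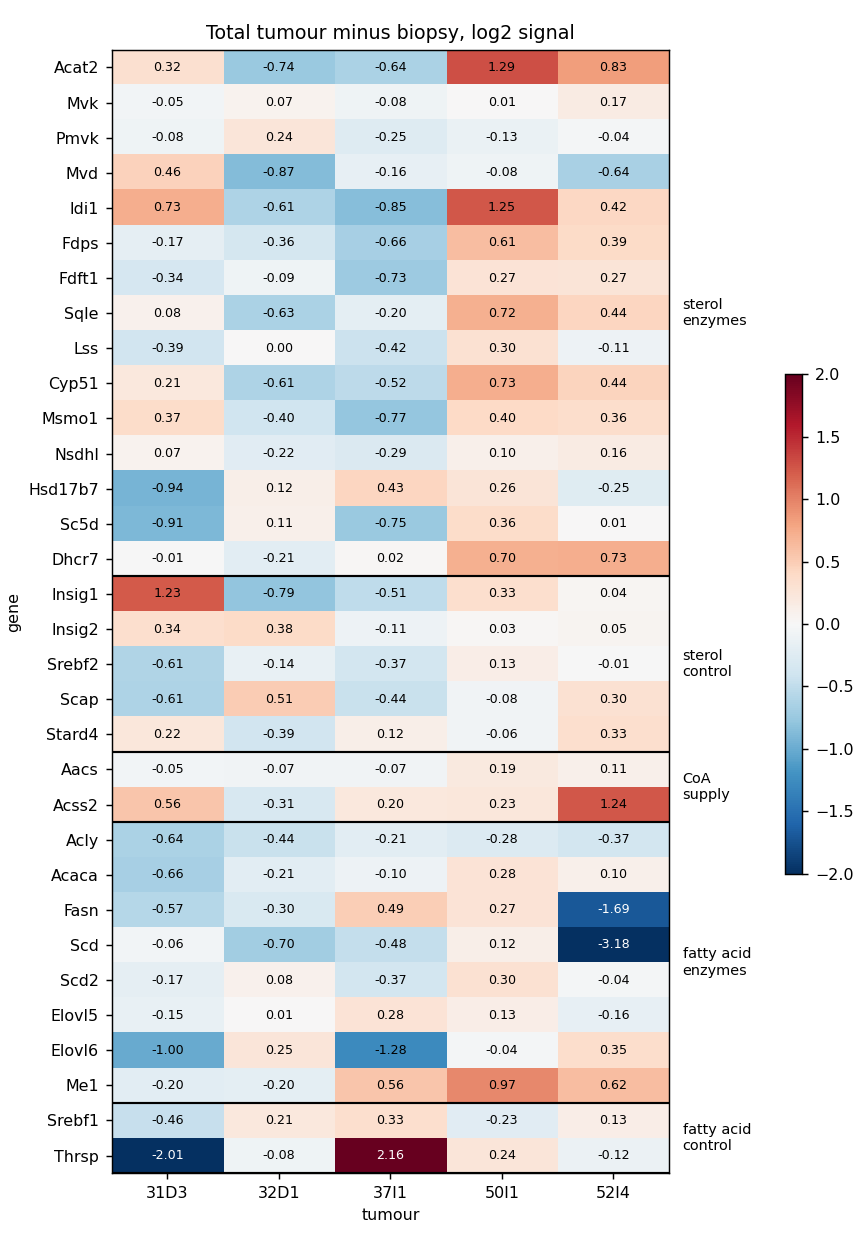
Total tumour minus biopsy, in log2 signal, for each of the 32 genes (rows, by role) in each of the 5 tumours (columns). Red is higher in the total tumour and blue lower; most sterol rows are red in 50I1 and 52I4 and blue in 37I1, all 10 fatty acid rows are blue in 31D3, and Acly is blue in every column.

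The mean log2 signal over the 22 sterol genes was 8.08, 9.09, 8.65, 8.34 and 8.13 in the biopsies, in the order 31D3, 32D1, 37I1, 50I1, 52I4 used throughout. For the total tumours it was 8.10, 8.86, 8.33, 8.68 and 8.37. The biopsy of 32D1 was the highest of the 10 arrays and both samples of 31D3 were at the low end, so the groups overlapped fully. The mean difference was 0.01 (SE 0.128, n = 5), made of differences of 0.02, -0.23, -0.32, 0.34 and 0.24. The number of sterol genes higher in the total tumour was 11, 7, 4, 18 and 17 of 22, again in that order.

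Over the 10 fatty acid genes the mean was 9.77, 10.07, 10.59, 9.93 and 10.13 in the biopsies. It was 9.18, 9.93, 10.72, 10.11 and 9.70 in the total tumours. Here 37I1 was highest at both moments and 31D3 lowest at both. The mean difference was -0.17 (SE 0.153, n = 5), from -0.59, -0.14, 0.14, 0.17 and -0.44. Fatty acid genes higher in the total tumour numbered 0, 4, 5, 7 and 4 of 10. Thrsp and Scd carry much of the spread: without these, left out after their values were seen, the mean over the other 8 differed by -0.11 (SE 0.106), and 37I1 had -0.04 in place of 0.14.

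The arms were set against each other after each was centred on its own mean over the 10 arrays, which leaves a relative position and no level. Sterol minus fatty acid was then -0.15, 0.57, -0.38, -0.05 and -0.45 in the biopsies, and 0.47, 0.48, -0.84, 0.12 and 0.23 in the total tumours. 32D1 was tilted to the sterol arm in both samples and 37I1 to the fatty acid arm in both. The remaining 3 tumours were below 0 in the biopsy and above it in the total tumour. For 50I1 this did not hold with the enzymes alone, where its biopsy was at 0.02. The pair differences were 0.61, -0.09, -0.46, 0.17 and 0.67, with a mean of 0.18 (SE 0.214, n = 5), smaller than its error. With the enzymes of both arms alone it was 0.21 (SE 0.178), and with the median over genes in place of the mean it was 0.06 (SE 0.293).

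**Figure D2:**
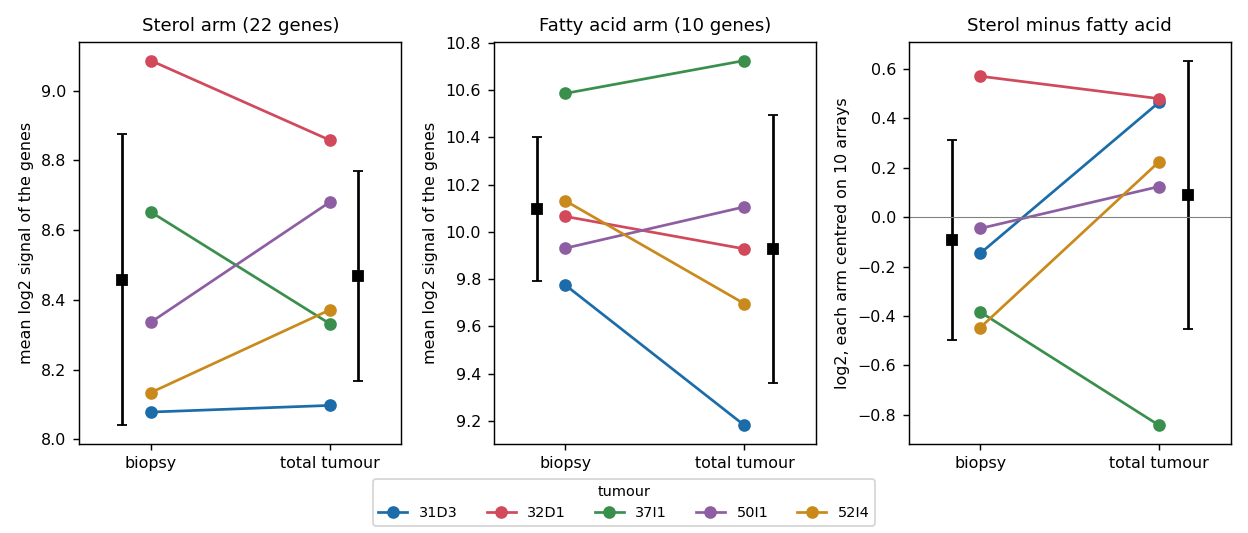
Mean log2 signal of the sterol arm (left) and fatty acid arm (middle), and the centred difference of the arms (right), in each tumour's biopsy and total tumour joined by a line; squares with bars are the mean ± SD over 5 tumours. The lines cross in the sterol panel, 37I1 stays highest in the fatty acid panel, and in the right panel the total tumour of 37I1 lies apart at -0.84.

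The tumour with the highest signal was counted for each gene. Of the 22 sterol genes, 16 had their highest biopsy in 32D1 and 6 in 37I1. Of the 10 fatty acid genes, 7 had it in 37I1, 2 in 52I4 and 1 in 32D1. In the total tumours 32D1 was highest for 13 sterol genes and 37I1 for 7 fatty acid genes, while 31D3 was lowest for 14 of the 22 and 8 of the 10.

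The early sterol steps included the widest and the narrowest spreads of the arm. Acat2, which condenses 2 acetyl-CoA to acetoacetyl-CoA, differed by 0.32, -0.74, -0.64, 1.29 and 0.83 in the 5 tumours, a mean of 0.21 (limma SE 0.324). The mevalonate kinases hardly moved: Mvk differed by 0.02 (SE 0.087) and Pmvk by -0.05 (SE 0.103). Mvd, the decarboxylase that yields isopentenyl diphosphate, was lower in 4 of 5 tumours, by -0.26 (SE 0.200), with 31D3 the exception at 0.46. Idi1, the isomerase that follows, showed the widest spread of the arm, with an SD of 0.892 over pairs. Its differences were 0.73, -0.61, -0.85, 1.25 and 0.42, and its second probe set had a mean of -0.03 where the first had 0.19. Fdps, which builds farnesyl diphosphate, differed by -0.04 (SE 0.202), and Fdft1, which joins 2 of these to squalene, by -0.12 (SE 0.169).

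Sqle, the squalene epoxidase and a rate-limiting step, had signals of 8.10, 9.82, 8.43, 8.40 and 8.29 in the biopsies. In the total tumours it had 8.18, 9.20, 8.23, 9.11 and 8.73. The biopsy of 32D1 stood well above the other biopsies, the total tumours of 32D1 and 50I1 were nearly level, and the groups overlapped. Their means were 8.61 ± 0.69 (SD, n = 5) and 8.69 ± 0.48 (SD, n = 5), a difference of 0.08 (limma SE 0.202, adjusted p = 0.968 with Benjamini-Hochberg). Leaving out 50I1 made it -0.08.

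The later sterol enzymes close the rings to lanosterol and turn it into cholesterol. Lss, which closes the rings, differed by -0.12 (SE 0.132). The lanosterol demethylase Cyp51 differed by 0.21, -0.61, -0.52, 0.73 and 0.44, and Msmo1 by 0.37, -0.40, -0.77, 0.40 and 0.36, a mean of -0.01 that was 0.03 after median centring. Nsdhl, which works beside Msmo1, gave 0.07, -0.22, -0.29, 0.10 and 0.16. Acat2, Sqle, Cyp51, Msmo1 and Nsdhl had the sign of the mean of the other sterol genes in 5 of 5 tumours, and 6 further genes did in 4. Pmvk and Hsd17b7, a sterol ketoreductase, did so in 1. In 31D3 that sign means little, since the whole arm differed by only 0.02 there. Other probe sets also gave other signs. The second probe set of Nsdhl was below 0 in every tumour, with a mean of -0.16. That of Hsd17b7 gave -0.07, -0.15, -0.03, 0.33 and -0.54. Sc5d, the desaturase near the end of the route, differed by -0.24 (SE 0.212), and its other probe sets by -0.03 and -0.13.

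Dhcr7, the last step to cholesterol, had 8.49, 9.80, 9.65, 8.79 and 8.48 in the biopsies and 8.48, 9.59, 9.68, 9.49 and 9.21 in the total tumours. It was high at both moments in 32D1 and 37I1 and was higher by 0.70 and 0.73 in the total tumours of 50I1 and 52I4. The groups overlapped, and the difference was 0.25 (limma SE 0.174, Benjamini-Hochberg adjusted p = 0.873). It was 0.13 without 50I1 and 0.13 without 52I4.

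Among the proteins that set the sterol response, Insig1 and Srebf2 gave the values of most contrast. Insig1, itself a target of the sterol factor and the brake on it, had 8.03, 9.99, 8.73, 8.57 and 8.16 in the biopsies and 9.26, 9.20, 8.22, 8.91 and 8.19 in the total tumours. 31D3 went from lowest to highest while 32D1 came down, so the mean differed by 0.06 only (limma SE 0.289, Benjamini-Hochberg adjusted p = 0.982). Without 31D3 it was -0.24. Srebf2 had 8.89, 9.02, 9.21, 8.69 and 8.49, then 8.29, 8.88, 8.84, 8.83 and 8.48. It was lower in 4 of 5 tumours, most in 31D3, and the groups overlapped, with a difference of -0.20 (limma SE 0.131, Benjamini-Hochberg adjusted p = 0.873). The other control genes differed by 0.14 (SE 0.109) for Insig2, -0.07 (SE 0.185) for Scap, the escort protein, and 0.04 (SE 0.128) for Stard4, a sterol carrier.

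The supply genes gave the largest positive difference. Acss2, which activates acetate, had 7.49, 8.82, 7.46, 7.86 and 6.98 in the biopsies and 8.05, 8.51, 7.66, 8.09 and 8.22 in the total tumours. It was higher in 4 of 5 tumours, by 1.24 in 52I4, and the groups overlapped. The difference was 0.38 (limma SE 0.217, unadjusted p = 0.123, Benjamini-Hochberg adjusted p = 0.846), and it was 0.17 without 52I4. Aacs, which activates acetoacetate for sterol and fatty acid synthesis, had 7.57, 8.51, 8.39, 8.06 and 7.62, then 7.52, 8.44, 8.32, 8.25 and 7.73. Each tumour kept its place, 32D1 and 37I1 high and 31D3 low, and the difference was 0.02 (limma SE 0.0908).

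In the fatty acid arm, Acly had 10.68, 11.57, 11.54, 11.48 and 11.08 in the biopsies and 10.04, 11.13, 11.33, 11.20 and 10.70 in the total tumours. Every total tumour was below its own biopsy, with differences from -0.21 to -0.64, yet the groups overlapped. The means were 11.27 ± 0.38 and 10.88 ± 0.52 (SD, n = 5), a fold of 0.764, with an unadjusted p of 0.00684 and an adjusted p of 0.642 in limma after Benjamini-Hochberg. With any 1 tumour left out the difference lay between -0.43 and -0.33. In bulk tissue, fewer cells of a type and less RNA per cell cannot be told apart.

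Acaca, which makes malonyl-CoA, differed by -0.12 (SE 0.149), from -0.66 in 31D3 to 0.28 in 50I1. Fasn, the synthase that builds palmitate, had 10.40, 11.18, 11.23, 10.91 and 12.30 in the biopsies and 9.83, 10.88, 11.71, 11.19 and 10.60 in the total tumours. The biopsy of 52I4 was the highest of the 10 arrays, its total tumour was the second lowest of that group, and the groups overlapped. The mean difference of -0.36 (limma SE 0.312, Benjamini-Hochberg adjusted p = 0.894) became -0.03 without that tumour.

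Scd, a delta-9 desaturase, had 8.13, 9.00, 8.90, 8.06 and 10.67 in the biopsies and 8.06, 8.30, 8.42, 8.18 and 7.50 in the total tumours. Again the biopsy of 52I4 stood highest and its total tumour lowest, 3.18 apart, and the other 4 tumours stayed within 0.70 of their biopsy. The difference of -0.86 (limma SE 0.477, unadjusted p = 0.118, Benjamini-Hochberg adjusted p = 0.846) was the largest of the 32 in size and was -0.28 without 52I4. Scd2, its close relative, had 12.21, 12.43, 12.73, 11.84 and 12.11, then 12.03, 12.51, 12.36, 12.14 and 12.06. It showed no such gap in 52I4, where it differed by -0.04, which was also its mean (limma SE 0.120). Its 4 probe sets did not share a sign, with means from -0.21 to 0.32, and sequence shared between the desaturases was not checked.

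Elovl5, which elongates polyunsaturated chains, differed by 0.02 (SE 0.104). Elovl6, which lengthens palmitate, differed by -0.34 on average (SE 0.275), with its largest difference, -1.28, in 37I1, and by -0.11 without that tumour. Its second probe set gave -0.75, with its largest difference, -1.81, in 31D3 and -1.54 in 37I1. Me1, the malic enzyme that supplies NADPH, had 8.75, 9.12, 9.31, 8.73 and 8.32 in the biopsies and 8.54, 8.93, 9.87, 9.69 and 8.93 in the total tumours. It was slightly lower in 31D3 and 32D1, higher in the other 3 tumours, and the groups overlapped. The difference was 0.35 (limma SE 0.201, unadjusted p = 0.131, Benjamini-Hochberg adjusted p = 0.847), and it was 0.19 without 50I1.

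The regulators of the fatty acid arm had means near 0 for unlike reasons. Srebf1 had 10.38, 10.47, 10.91, 10.25 and 9.82, then 9.92, 10.69, 11.24, 10.02 and 9.95. It was highest in 37I1 at both moments, differed between -0.46 and 0.33 in single tumours, and averaged -0.00 (limma SE 0.141), which was 0.03 with each array centred on its median and 0.04 in its second probe set. Thrsp, a protein that promotes fatty acid synthesis in fat, liver and mammary gland, had 8.06, 7.21, 10.44, 9.64 and 8.95 in the biopsies and 6.05, 7.13, 12.61, 9.88 and 8.84 in the total tumours. 37I1 was highest at both moments with a difference of 2.16, 31D3 had -2.01, and the other 3 tumours stayed within 0.24 of their biopsy. Its mean difference was 0.04 (limma SE 0.528), its 10 arrays spanned 6.56, the widest range of the 32, and its 3 probe sets had means of 0.04 to 0.05.

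**Figure D3:**
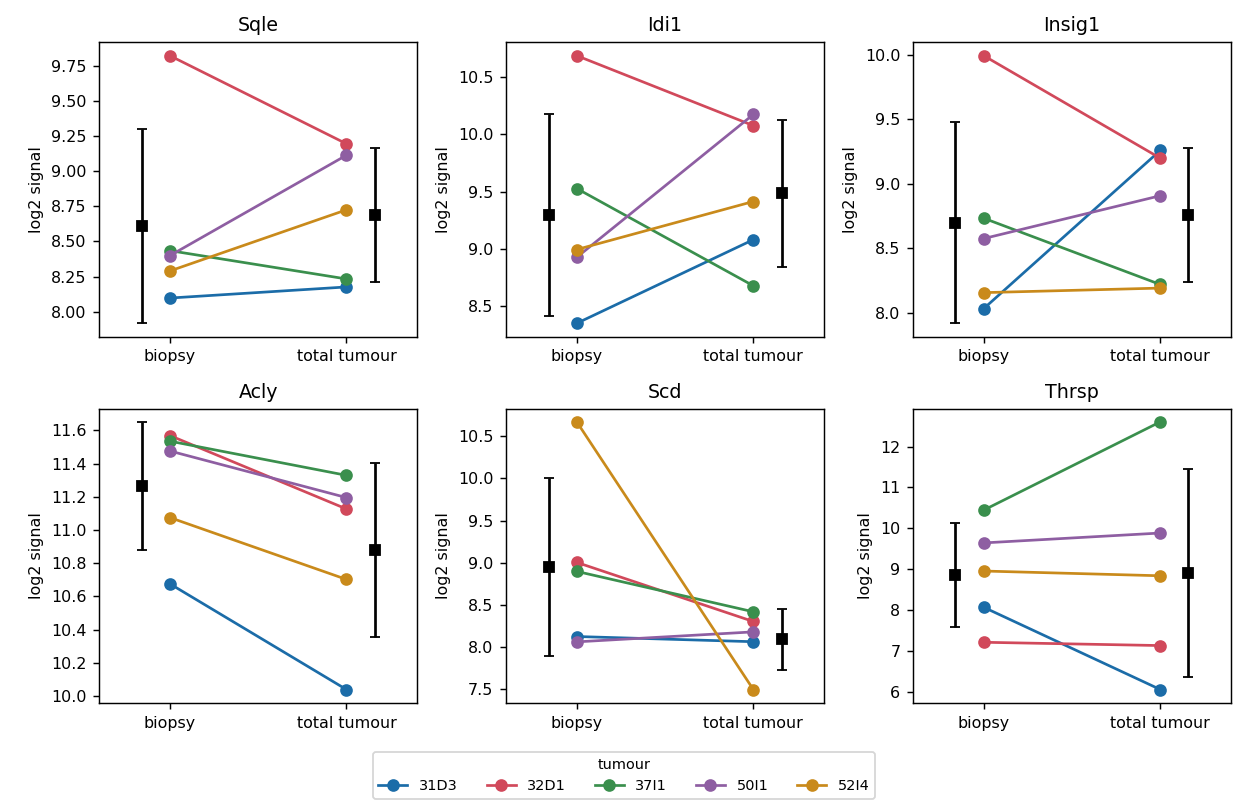
Log2 signals of Sqle, Idi1 and Insig1 (sterol arm, top) and of Acly, Scd and Thrsp (fatty acid arm, bottom) in each tumour's biopsy and total tumour; squares with bars are the mean ± SD over 5 tumours, and each panel has its own axis. All 5 Acly lines slope down, the Scd difference comes mostly from 52I4 and the Thrsp lines fan out, with 37I1 at 12.61 and 31D3 at 6.05 in the total tumours.

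A second question was whether the 2 samples of a tumour resembled each other more than samples of different tumours did. Here limma's moderated F test over the 5 tumours, with the moment as a covariate and Benjamini-Hochberg adjustment over 18625 probe sets, called 0 of the 32 genes, against 16 of all probe sets (0.0859%). At an unadjusted p under 0.05 it gave 8 of 32 genes, 5 in the sterol arm (Fdps, Sqle, Nsdhl, Dhcr7 and Aacs) and 3 in the fatty acid arm (Acly, Srebf1 and Thrsp), against 10.5% of all probe sets. Genes of a route share arrays and vary together, so this count has no test of its own.

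By this F test the steadiest places among tumours were those of Aacs and Acly. Acly gave an unadjusted p of 0.00156 and Aacs one of 0.00161, and both had an adjusted p of 0.194, the lowest of the 32 in limma after Benjamini-Hochberg. The Acly biopsy and total tumour of 31D3 were the lowest of their groups, and Aacs was lowest in 31D3 and highest in 32D1 at both moments. Thrsp followed with an unadjusted p of 0.00637 and an adjusted p of 0.291 in limma, and Srebf1 with 0.00897 and 0.332. In the sterol arm Dhcr7 gave 0.0149 and 0.383, and Sqle 0.0283 and 0.423.

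Other genes of these routes were taken from 4 further lists: other sterol and uptake genes, other fatty acid and lipid genes, sterol export genes under the liver X receptor, and the machinery that processes and regulates the sterol factors. Of 59 genes listed, 50 had a probe set of their own and 46 passed the filter. In the paired limma fit 0 were called. At an unadjusted p under 0.05 there were also 0, against 6.08% of all probe sets. On average 32 were higher and 14 lower, against 5521 and 5272 over all genes that passed the filter. Between tumours 0 were called, against 0.0859% of all probe sets. There 6 of 46 passed an unadjusted p of 0.05, against 10.5% of all probe sets.

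Among 10 other sterol genes 5 were higher and 5 lower. Ggps1, which diverts farnesyl units to geranylgeranyl, was lower in 5 of 5 tumours by -0.23 (limma SE 0.0964, unadjusted p = 0.0503). Its difference was only -0.02 in 32D1, and 5.11% of all probe sets were lower in 5 of 5. Tmem97, an endoplasmic reticulum protein of sterol trafficking, differed by 0.33 (SE 0.275) and by 1.06, -0.81, -0.01, 0.68 and 0.73 in single tumours. Between tumours the smallest p values of the list were those of Ebp (0.0587), an isomerase late in the sterol route, and Lbr (0.0691), a sterol reductase of the nuclear envelope.

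Of 20 tested fatty acid and lipid genes 16 were higher and 4 lower. Slc25a1, the carrier that brings citrate out of mitochondria, was higher in 5 of 5 tumours by 0.24 (limma SE 0.101, unadjusted p = 0.0514, Benjamini-Hochberg adjusted p = 0.817). In 31D3 it was higher by only 0.02, and 2.12% of all probe sets were higher in 5 of 5. Acly, which uses that citrate, was lower in 5 of 5, and a link between these genes was not tested. Agpat2, an acyltransferase of glycerolipid synthesis, differed by 0.17 (SE 0.112). Olah, the thioesterase that ends chains early in the mammary gland, had 9.20, 8.21, 11.32, 11.28 and 11.05 in the biopsies and 7.73, 6.52, 12.71, 10.96 and 10.58 in the total tumours. Like Thrsp it was lowest in the same 2 tumours, 31D3 and 32D1, and highest in 37I1, and between tumours it gave an unadjusted p of 0.00175 and an adjusted p of 0.199 in limma. Mgll, a lipase, gave an unadjusted p of 0.0274 there.

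Sterol export genes gave 7 higher and 1 lower of 8 tested, and their mean log2 signal differed by -0.19, 0.39, 0.25, -0.19 and 0.16 in the 5 tumours. The sign was opposite to that of the sterol arm in every tumour except 52I4, but in 31D3 the arm was near 0, at 0.02, and its enzymes alone had -0.04, the sign of the export genes. Abca1, which exports cholesterol, had 10.52, 5.69, 10.11, 9.94 and 9.37 in the biopsies and 9.56, 7.00, 10.55, 9.27 and 9.53 in the total tumours. It was far lowest in 32D1 at both moments, the tumour with the highest sterol arm, and between tumours it gave an unadjusted p of 0.00102 and an adjusted p of 0.168 in limma. Abcg5, another exporter, gave 0.00521 and 0.277. Lpcat3, a phospholipid acyltransferase, and Nr1h3, a liver X receptor, differed by 0.23 (SE 0.109) and 0.22 (SE 0.130). In the processing list 4 were higher and 4 lower. Rnf139, a ligase that acts in sterol-regulated degradation, was higher in 5 of 5 by 0.18 (SE 0.0954), though by only 0.02 in 37I1. Mbtps2, a protease that frees the factors, differed by -0.06 (SE 0.0865). Prkaa2, a subunit of AMP-activated kinase, gave an unadjusted p of 0.0013 and an adjusted p of 0.180 between tumours.

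The tissue content of the samples moved between moments too, and its part in the values above was not tested. All samples carried the epithelial markers at high signal: the mean over 8 such genes lay between 11.34 and 11.79 in biopsies and between 11.52 and 12.04 in total tumours. Krt8, a luminal keratin, differed by 0.37 (limma SE 0.144, unadjusted p = 0.0413, Benjamini-Hochberg adjusted p = 0.798). Markers of dividing cells, 8 of 8 with a higher mean in the total tumours and 0 called in limma, paired, at an adjusted or an unadjusted p under 0.05, differed by 1.09, -0.61, -0.39, 0.77 and 0.96 in the 5 tumours, and ranged from 7.35 to 9.87 in the biopsies and from 8.22 to 9.68 in the total tumours. They had the sign of the sterol arm in 5 of 5 tumours, but in 31D3 the arm was near 0, at 0.02, and its enzymes alone had -0.04, the opposite sign. Like the arm, these markers were highest in the biopsy of 32D1. Aurka, a mitotic kinase, gave the smallest p of that list between tumours, 0.0115.

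Milk and secretory genes differed by 0.38, -3.14, 0.51, 1.22 and -0.15, and ranged from 8.53 to 10.87 in biopsies and from 7.73 to 11.74 in total tumours. Elf5, an alveolar transcription factor, had 7.57, 7.23, 8.98, 8.59 and 8.29, then 7.79, 5.18, 10.97, 9.55 and 8.75. Its highest sample at both moments was 37I1, as for Thrsp, Srebf1 and the fatty acid arm. The mean over the milk and secretory genes did not share this. It was highest in 32D1 among the biopsies, at 10.87, and in 50I1 among the total tumours, at 11.74.

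Adipocyte markers came from 14 genes, of which 4 were below the filter limit of 5.15 on every array. Their mean ranged from 5.49 to 5.98 in the biopsies and from 5.90 to 6.82 in the total tumours, with 1.32 more in 37I1 and 0.91 more in 52I4. Adipoq, which defines fat cells, had 3.89, 3.92, 3.89, 3.68 and 3.85 in the biopsies and 3.90, 4.09, 5.48, 3.97 and 5.21 in the total tumours. Car3, a carbonic anhydrase abundant in fat, was higher in 5 of 5 tumours by 1.94 (limma SE 0.527, unadjusted p = 0.00903, Benjamini-Hochberg adjusted p = 0.656). Adipoq passed the limit in the total tumours of 37I1 and 52I4 and in no other sample. In 52I4, whose total tumour had more of these markers, Fasn and Scd were lower than in the biopsy, and in 37I1 Fasn was higher and Scd lower.

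Stromal, immune and basal markers were also measured. Fibroblast markers differed by 0.69, -0.47, 2.74, -1.57 and 1.59, and their lowest array was the biopsy of 37I1 at 8.10 in a biopsy range up to 12.04. Macrophage markers ranged from 7.67 to 9.86 in biopsies and from 8.18 to 9.96 in total tumours, and T cell markers from 5.39 to 8.06 and from 6.49 to 9.43. Basal and myoepithelial markers differed by -0.44, -0.08, -0.53, 0.23 and -0.28. Of these 4 lists, none had the sign of the sterol arm in all 5 tumours.

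**Figure D4:**
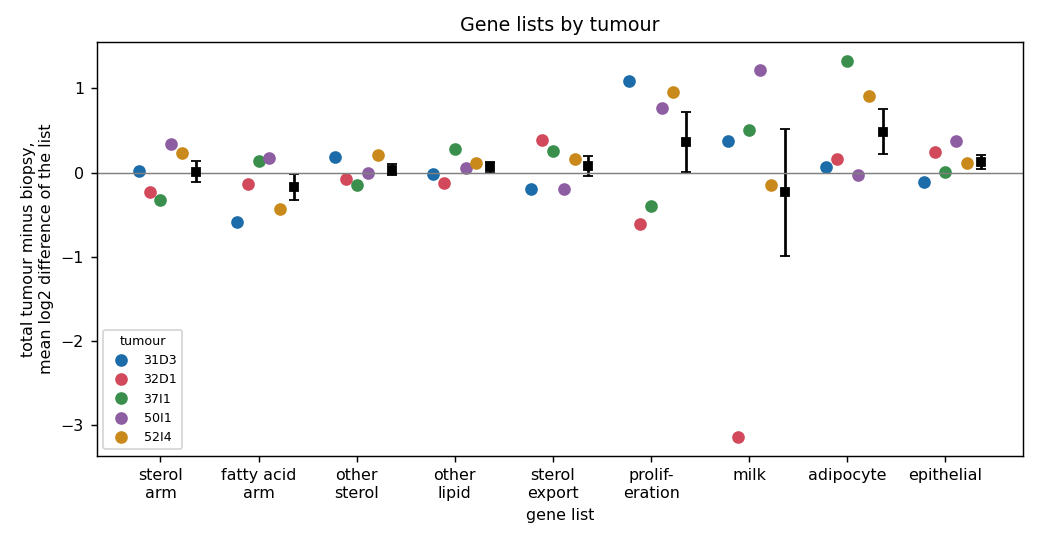
Mean log2 difference, total tumour minus biopsy, of the 2 arms, 3 further route lists and 4 marker lists, 1 point per tumour; squares with bars are the mean ± SE over 5 tumours. The dividing cell (proliferation) markers lie on the same side of 0 as the sterol arm in all 5 tumours, although the arm is near 0 in 31D3 (0.02, and -0.04 for its enzymes alone), and the milk genes of 32D1 lie at -3.14.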

How the data were processed

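The authors deposited log2 signals for 31099 probe sets on 10 arrays, made with RMA per the submitters' processing notes. RMA takes out any shift common to most transcripts. Which RMA software and chip definition were used is not given in the sources used here. That the scale is log2 follows from the range, 2.34 to 14.26. The late sample is a total tumour per the sample labels, which were followed, and a needle sample per the series text.

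Control probe sets (57) and the dimmest 40% by mean signal (limit 5.15) were left out, which left 18625. Genes were named only from probe sets annotated to 1 gene. Both tests were run in limma 3.58.1 (lmFit, eBayes, R 4.3.3) with Benjamini-Hochberg adjustment and a threshold of 0.05. They were also run on simulated data with planted shifts larger than any mean difference of the 32 genes. That run says nothing about how well smaller differences are found. The number of arrays limits the precision. Arm and list means carry no p.

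Pairing comes from the tumour names in the labels. Deviations from the group means correlated above 0.1 in 4 of 5 pairs, up to 0.34. The exception was 50I1, at -0.21. Between different tumours the highest value was 0.36, for the biopsy of 50I1 with the total tumour of 31D3. The differences given for 50I1 rest on the pairing in the labels. The labels name no processing batch. The order of array labels follows the groups, so a batch that went by that order could not be told apart from group.

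Genes and lists were chosen with earlier results of these data known. All members were named. All arrays are given for 9 fixed members and for the 3 smallest p values of each arm in each test, and up to 2 genes per test for other lists. Alternatives were other filters, normalizations, probe set summaries, no tumour block, the methods' t-test, a threshold of 0.10, and each tumour left out.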

Additional observations from a re-analysis of the deposited data

Results flagged for a closer look

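In 70 groups of 5 samples (the 2 moments for 32 genes, the arms and their difference), 5 held a sample far from the others by Dixon's rule at 95%, where chance gives about 1 in 20, or 3.5. The total tumour of 32D1 had Pmvk, a mevalonate pathway kinase, at 8.88, with the nearest other total tumour at 8.33. The biopsy of 32D1 had Sqle at 9.82, with the nearest at 8.43. The total tumour of 31D3 had Sc5d at 6.80, below the nearest at 7.93, and Acaca at 8.38, below 9.17. For Sc5d, the probe set used differed by -0.91 in 31D3, while its other probe sets differed there by only -0.20 and -0.14. The centred sterol minus fatty acid value of the total tumour of 37I1 was -0.84, with the nearest at 0.12. With the enzymes alone, which leaves out Thrsp, that sample was at -0.48, with the nearest at 0.13.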

How the results depend on the processing

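No gene of the 32 was called under any alternative run: the lowest adjusted p in limma or the methods' t-test was 0.540 over 352 paired values, and 0.124 between tumours. With no replicate block, genes at an unadjusted p under 0.05 went from 1 to 0, and with 1 tumour left out they were 1 to 2 (2 without 31D3 or without 32D1). The tumour pairing changed no call. Between tumours, genes at an unadjusted p under 0.05 numbered 8, and 6 to 14 with 1 tumour left out, 14 of them without 50I1. Over all probe sets, calls between tumours went from 16 to 26 with no filter, to 28 at a threshold of 0.10, and to 0 to 3 with 1 tumour left out (0 without 52I4, 1 without 50I1). The arm means moved within their SD: with 1 tumour left out the sterol arm lay between -0.07 and 0.09, the fatty acid arm between -0.26 and -0.06 and their difference between 0.06 and 0.34. Of the 32 genes, 19 changed the sign of their mean difference under some alternative, 9 of them without 50I1 and 8 without 37I1. Median centring turned Msmo1 and Srebf1, both near 0. The cause was not tested. With 5 tumours, differences of the size seen for Scd or Acss2 did not pass the test.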
